A study of Homo sapiens with 6 samples.

Results

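The DNA glycosylases are the enzymes that open base excision repair, and 10 of their genes were followed here among the 58336 genes counted. Members were the rows whose Ensembl identifier carries the symbol *OGG1*, *MUTYH*, *NTHL1*, *NEIL1*, *NEIL2*, *NEIL3*, *UNG*, *TDG*, *MBD4* or *MPG*, and each symbol was found once. The cells were A2780, an established ovarian cancer line of endometrioid type, studied as a single line. RNA was sequenced from 3 biological replicates given the vehicle DMSO and 3 (A, B and C in each group) given 6 µM TH588 for 48 h. TH588 is a first-generation inhibitor of MTH1, the *NUDT1* product that removes oxidized purine nucleotides from the nucleotide pool. The authors count TH588 among the mitotic MTH1 inhibitors, which also stall cells in mitosis. The comparison addresses how the transcripts of enzymes that excise damaged bases from DNA stood after this drug. Its actions on the nucleotide pool and on mitosis cannot be told apart here.

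Each DNA glycosylase recognizes a small set of altered bases, flips the base out of the helix and cuts the bond to its sugar. The abasic site left behind is then cut by APE1, filled by a DNA polymerase and sealed by a ligase. OGG1 excises 8-oxoguanine paired with cytosine, and MUTYH excises the adenine that a polymerase has placed opposite 8-oxoguanine, so the pair guards against mutations from oxidized guanine.

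Total counts were between 77634048 and 99074175 in 5 libraries and 28537837 in TH588 replicate A, in which the small nucleolar RNA *SNORD3A* took 21.9% of counts, against 7.68% to 13.0% in the others. With TMM scaling, 15844 genes entered edgeR's quasi-likelihood test and 7852 passed an adjusted p of 0.05 by the Benjamini-Hochberg method. The defining markers of the Müllerian lineage, *PAX8*, *WT1*, *MUC16* and *ESR1*, were too low to be tested, as were the epithelial markers *KRT8*, *KRT19* and *CDH1*. The epithelial markers *KRT18* and *EPCAM* were low with DMSO, at means of 3.56 and 0.644 CPM, and higher with TH588. Of markers of other cells, *PTPRC*, *PECAM1* and *HBB* were at or near 0. The collagen gene *COL1A1* was counted at a level like that of *KRT18* with DMSO, at a mean of 3.97 CPM. With TH588 *COL1A1* stood at 3.84 CPM and did not differ detectably (adjusted p = 0.977). The 18 S phase markers examined were all lower with TH588 (median log2 fold change -1.41), and the 14 G2/M markers were all lower, with a median of -1.19. The 10 direct p53 targets examined were all higher, with a median of 2.21.

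Most DNA glycosylase transcripts were lower after TH588. All 10 genes passed the filter on low counts, 7 of them fell, 2 rose, and *TDG* did not pass the test. Across all tested genes the share called in either direction was 49.6%, with 25.3% called lower and 24.2% called higher. The median log2 fold change of the 10 genes was -0.42, and that of all tested genes was 0.02. The largest falls were those of *NEIL3* and *UNG*, and the largest rise was that of *NEIL1*. Only *NEIL1* and *NEIL3* were both called and changed by more than 2-fold, which 14.5% of all tested genes did. In 9 of the 10 genes the DMSO and TH588 libraries did not overlap, 7 with TH588 below and 2 with TH588 above, and 57.7% of tested genes showed no overlap in either direction. Without TH588 replicate A, the shallow library, the counts of members were also 7 lower and 2 higher. In bulk RNA, fewer cells of a type and less RNA per cell cannot be told apart, so none of these values says in which cells a transcript was lost.

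**Figure D1:**
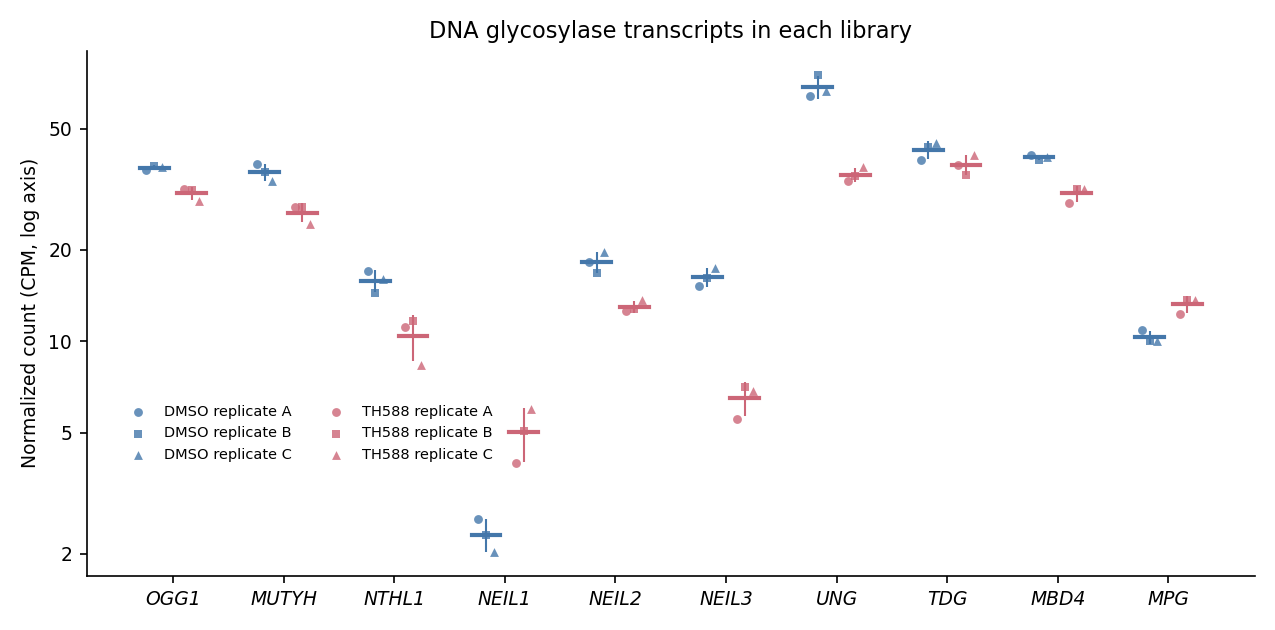
Normalized counts (CPM, log axis) of the 10 DNA glycosylase genes in each of the 3 DMSO and 3 TH588 libraries. Symbols mark replicates A, B and C, horizontal bars the group mean and vertical lines the SD. The DMSO and TH588 points overlap for *TDG* alone.

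**Figure D2:**
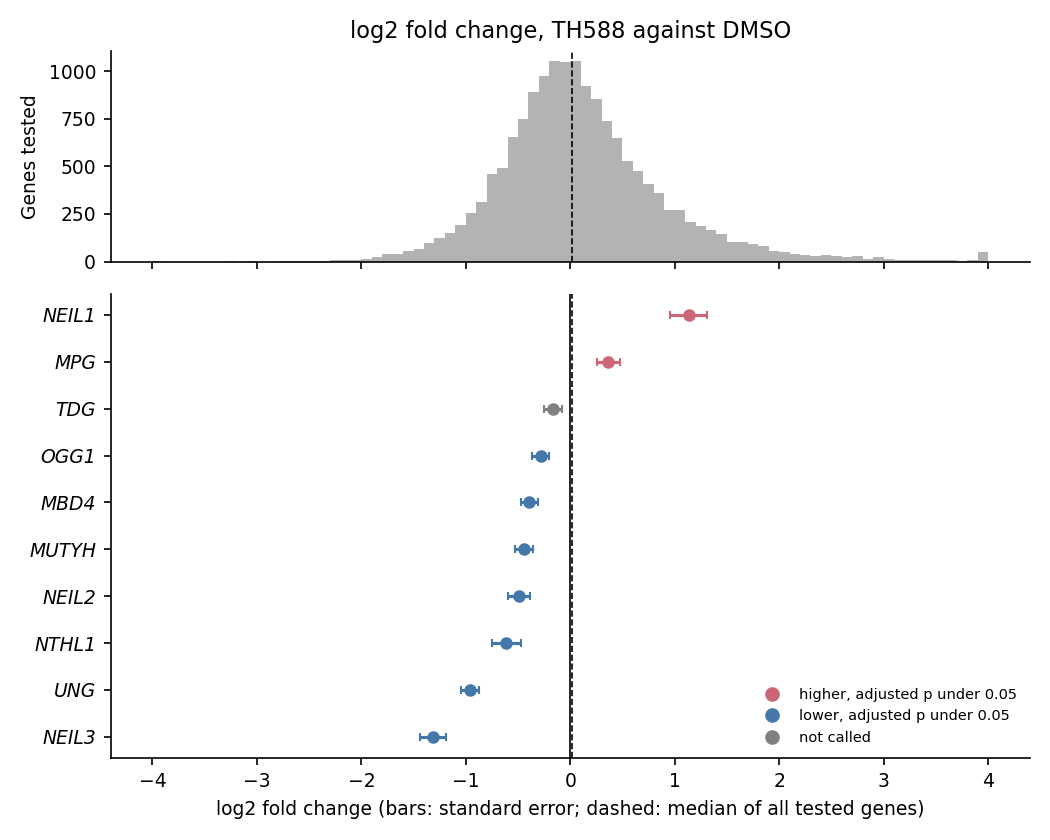
Upper panel, number of tested genes by log2 fold change of TH588 against DMSO, with values beyond 4 in either direction placed in the end bins; lower panel, log2 fold change and standard error of each DNA glycosylase gene. *NEIL3* lies at -1.31 and *NEIL1* at 1.13, and the dashed line marks the median of all tested genes, 0.02.

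*OGG1* (ENSG00000114026, chromosome 3 of GRCh38 from 9749944 to 9788219, plus strand) had 36.5, 37.7 and 37.5 CPM under DMSO, given here and below in the order A, B, C, and 31.6, 31.5 and 28.9 CPM under TH588. CPM are counts scaled to the TMM library size, and adjusted p-values, unless another tool is named, are those of edgeR's quasi-likelihood fit over all tested genes. The 3 TH588 libraries thus lay below the 3 DMSO libraries, but closely. *OGG1* fell by 17.7%, or -0.28 ± 0.08 on the log2 scale (standard error), with an adjusted p of 0.0117. It lost the call without DMSO replicate C (adjusted p = 0.0647) or TH588 replicate C (adjusted p = 0.0646), and with library size alone as the scaling (log2 fold change -0.18, adjusted p = 0.171). Of its exon bases, 29.0% lie in exons of other genes on the opposite strand, mainly those of *CAMK1*, a calcium-regulated kinase gene with 80.1% of its own exon bases inside *OGG1* exons. The library kit does not mark strand, and the counting of shared reads is not described, so reads of the pair cannot be told apart. *CAMK1* itself did not differ detectably (log2 fold change 0.06, adjusted p = 0.703), whereas *TADA3*, which shares a smaller stretch, rose (log2 fold change 0.63, adjusted p = 0.000815).

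*MUTYH* (ENSG00000132781, chromosome 1 from 45329163 to 45340470, minus strand) had 38.1, 36.1 and 33.7 CPM under DMSO and 27.6, 27.5 and 24.3 CPM under TH588. No TH588 library reached the lowest DMSO library. Its log2 fold change was -0.44 ± 0.09 (standard error), with an adjusted p of 0.00140, and the call held under all 15 alternative analyses, between -0.47 and -0.34. Exons of *TOE1*, the gene that runs the other way from the same region, cover 14.1% of its exon bases, and *TOE1* did not pass the test (log2 fold change -0.22, adjusted p = 0.0538).

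Because both enzymes serve the same lesion, their transcripts were also compared within each library, where the scaling between libraries plays no part. The log2 ratio of *OGG1* to *MUTYH* counts per kilobase of exon was -1.22, -1.10 and -1.004 under DMSO, and -0.96, -0.97 and -0.91 under TH588. The TH588 ratios were thus the 3 highest, although the gap to DMSO replicate C was small. The mean ratio was higher by 0.16 on the log2 scale with TH588 (exact two-sided permutation p = 0.1, the smallest that 3 against 3 libraries can give), so this difference could not pass the threshold. The difference between the groups does not depend on gene length, but the sign of the ratio does: per kilobase of canonical transcript, *OGG1* stood above *MUTYH*, at 22.8 against 21.1 CPM with DMSO and 18.8 against 15.5 CPM with TH588.

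The RefSeq promoter windows, which run from 250 bases before to 50 bases after an annotated start on GRCh38.p14, were searched on both strands for 5 kinds of element. These were E2F sites (TTTGGCGC or TTTCGCGC), the cell cycle homology region or CHR (TTTGAA or TTCGAA), the NF-Y box (CCAAT), the SP1 box (GGGCGG) and the p53 decamer. Windows were found for 9 of the 10 genes, 14 windows in all, and *NEIL2* had none in the table. Of all 35116 windows of the table, 1.15% held the E2F letters, 16.4% the CHR, 34.6% the NF-Y box, 45.0% the SP1 box and 6.63% the p53 decamer. Matches to different elements did not overlap in these 14 windows. No window of a DNA glycosylase gene held the E2F letters. The stretch ahead of *OGG1*, the 8-oxoguanine glycosylase, held a pair of NF-Y boxes and an SP1 box, all on the opposite strand and printed in capitals, and no CHR. It is shown 5′ to 3′ to set beside those of the genes that changed more.
OGG1, chr3:9749702-9749943, plus strand: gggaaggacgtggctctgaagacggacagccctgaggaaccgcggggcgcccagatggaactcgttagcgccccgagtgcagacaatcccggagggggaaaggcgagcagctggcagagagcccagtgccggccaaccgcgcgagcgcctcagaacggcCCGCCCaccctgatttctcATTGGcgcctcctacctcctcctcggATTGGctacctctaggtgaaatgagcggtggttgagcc

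Several enzymes of the set excise oxidized pyrimidines and ring-opened purines: NTHL1, the main glycosylase for thymine glycol, and the 3 NEIL enzymes, related to bacterial Nei, of which NEIL1 and NEIL2 act also on bubbles and single strands and NEIL3 is linked to replicating cells and to crosslinks at stalled forks. *NTHL1* and *NEIL2* fell moderately, *NEIL3* fell most of all members, and *NEIL1* went the other way.

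*NEIL3* (ENSG00000109674, chromosome 4 from 177309836 to 177362943, plus strand) had 15.2, 16.2 and 17.4 CPM under DMSO and 5.53, 7.09 and 6.84 CPM under TH588. Every TH588 library thus lay far below the lowest DMSO library. Its log2 fold change was -1.31 ± 0.12 (standard error), with an adjusted p of 4.04e-06, and 2.32% of tested genes had a lower value. Over the alternatives its log2 fold change stayed between -1.38 and -1.19 and it was called in all 15. No exon of another gene overlaps it. Its size of change lay near the median of the S phase markers, -1.41, and of the G2/M markers, -1.19, and the part of the cell cycle genes' fall in its own was not tested.

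The start of *NEIL3* is shown because this gene fell most. The stretch ahead of its exons held an NF-Y box and 4 SP1 boxes, in capitals, and the CHR letters stood 24 bases before the RefSeq start, capitals in the shorter site.
NEIL3, chr4:177309624-177309835, plus strand: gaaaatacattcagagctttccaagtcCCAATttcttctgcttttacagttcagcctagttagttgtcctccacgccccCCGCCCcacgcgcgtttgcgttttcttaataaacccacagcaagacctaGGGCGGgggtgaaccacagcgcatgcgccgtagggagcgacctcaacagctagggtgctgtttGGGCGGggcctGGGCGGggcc
NEIL3, chr4:177309838-177309867, plus strand: acgcgcgcgagaTTTGAAtttcctctgcgt

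*NEIL1* (ENSG00000140398, chromosome 15 from 75346955 to 75357114, plus strand) was scarce, with 2.59, 2.30 and 2.03 CPM under DMSO and 3.96, 5.07 and 5.98 CPM under TH588. All TH588 libraries lay above all DMSO libraries, with a wider spread among them. The raw counts behind these values were 190 to 213 reads per DMSO library and 106 to 552 per TH588 library. *NEIL1* rose 2.19-fold, or 1.13 ± 0.18 on the log2 scale (standard error), with an adjusted p of 0.000196, and 90.4% of tested genes had a lower value. The value ranged from 1.01 to 1.27 over the alternatives, all 15 of which called it. Exons of *MAN2C1*, an alpha-mannosidase gene on the opposite strand, cover 26.4% of its exon bases, and *MAN2C1* fell (log2 fold change -0.58, adjusted p = 0.000902). How far reads of *MAN2C1* enter the *NEIL1* value was not tested. A microRNA gene and an unnamed gene inside *NEIL1*, *MIR631* and ENSG00000275645, had no counts in any library.

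The stretch ahead of the first *NEIL1* start is shown as that of the member that rose most. It held none of the 5 elements, and the NF-Y box of that window stands downstream of it, within the exon of the authors' table.
NEIL1, chr15:75346789-75346954, plus strand: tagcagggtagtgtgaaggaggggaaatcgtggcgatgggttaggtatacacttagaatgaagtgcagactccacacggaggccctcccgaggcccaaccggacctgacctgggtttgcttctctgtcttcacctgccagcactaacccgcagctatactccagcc

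*NTHL1* (ENSG00000065057, chromosome 16 from 2039815 to 2047866, minus strand) had 17.0, 14.4 and 15.95 CPM under DMSO and 11.1, 11.7 and 8.32 CPM under TH588. The groups did not overlap, and TH588 replicate C was the lowest. Its log2 fold change was -0.61 ± 0.14 (standard error), with an adjusted p of 0.00281. Exons of *TSC2*, the tuberin gene beside it on the opposite strand, cover 16.5% of its exon bases, and *TSC2* rose (log2 fold change 0.33, adjusted p = 0.00423).

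*NEIL2* (ENSG00000154328, chromosome 8 from 11769639 to 11787346, plus strand) had 18.2, 16.8 and 19.7 CPM under DMSO and 12.5, 12.8 and 13.6 CPM under TH588. The TH588 libraries were close together and all below DMSO. Its log2 fold change was -0.49 ± 0.10 (standard error), with an adjusted p of 0.00196, without exon overlap with another gene. The calls of *NTHL1* and *NEIL2* held under all 15 alternatives.

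The enzymes for uracil and deaminated bases differed among themselves. UNG removes uracil from DNA in the nucleus and in mitochondria, TDG removes thymine and uracil from mispairs with guanine and the oxidized forms of methylcytosine, and MBD4 binds methylated CpG sites and removes thymine or uracil from mispairs there. *UNG* fell strongly, *MBD4* fell modestly, and the change of *TDG* did not pass the test.

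*UNG* (ENSG00000076248, chromosome 12 from 109097574 to 109110992, plus strand) had 64.1, 75.3 and 66.3 CPM under DMSO and 33.6, 34.8 and 37.4 CPM under TH588. The highest TH588 library lay far below the lowest DMSO library, with means of 68.6 ± 5.94 and 35.3 ± 1.95 CPM (SD, n = 3 each). *UNG* fell by 48.5%, or -0.96 ± 0.09 on the log2 scale (standard error), with an adjusted p of 3.18e-06, and 5.95% of tested genes had a lower value. The alternatives gave values between -1.004 and -0.85, all 15 of them called. The gene counts do not separate the transcripts of the nuclear and the mitochondrial form. Its pseudogenes *UNGP1* and *UNGP3* had 0 counts in all libraries.

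RefSeq gives *UNG* a pair of starts, and both stretches are shown because this was the second largest fall. The upstream one held adjoining SP1 boxes on the opposite strand, and a p53 decamer match, GGGCTAGCCT, stood 28 bases after its start, outside the stretch printed. The downstream one held the CHR letters on the opposite strand, read as TTCAAA, together with 3 NF-Y boxes and an SP1 box, all in capitals. A CHR match thus occurred in a window of *NEIL3*, *UNG* and *MUTYH*, in 3 of the 14 windows, against 16.4% of all windows of the table. These were 3 of the 9 genes with windows, for which no share over all genes was computed.
UNG, chr12:109097347-109097573, plus strand: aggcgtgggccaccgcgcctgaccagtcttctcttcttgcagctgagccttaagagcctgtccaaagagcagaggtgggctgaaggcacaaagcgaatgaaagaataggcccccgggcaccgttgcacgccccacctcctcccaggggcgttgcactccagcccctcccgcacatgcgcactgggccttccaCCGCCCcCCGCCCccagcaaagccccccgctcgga
UNG, chr12:109097922-109098117, plus strand: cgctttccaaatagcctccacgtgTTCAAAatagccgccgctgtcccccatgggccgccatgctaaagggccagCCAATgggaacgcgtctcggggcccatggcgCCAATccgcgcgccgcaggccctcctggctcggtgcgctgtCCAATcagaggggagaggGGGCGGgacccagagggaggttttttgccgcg

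*MBD4* (ENSG00000129071, chromosome 3 from 129430944 to 129440179, minus strand) had 40.9, 39.4 and 40.4 CPM under DMSO and 28.5, 31.7 and 31.7 CPM under TH588. The DMSO libraries were nearly level and every TH588 library lay below them. Its log2 fold change was -0.39 ± 0.08 (standard error), with an adjusted p of 0.00168, which did not pass with library size alone as the scaling (-0.28, adjusted p = 0.0692). Exons of *IFT122*, a ciliary transport gene that also fell (log2 fold change -0.33, adjusted p = 0.00508), cover 4.29% of its exon bases.

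*TDG* (ENSG00000139372, chromosome 12 from 103965804 to 103988874, plus strand) had 39.4, 43.7 and 44.9 CPM under DMSO and 37.9, 35.3 and 41.0 CPM under TH588. TH588 replicate C stood above DMSO replicate A, so the groups overlapped. The log2 fold change was -0.16 ± 0.09 (standard error), with an adjusted p of 0.146, and it stayed below 0 and uncalled in all 15 alternatives. Its pseudogene *TDGP1* had 1 count in TH588 replicate B and none elsewhere.

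*MPG* (ENSG00000103152, chromosome 16 from 77007 to 85853, plus strand) encodes the glycosylase for alkylated purines and hypoxanthine. It had 10.9, 9.99 and 9.98 CPM under DMSO and 12.3, 13.7 and 13.7 CPM under TH588, with no overlap. Its log2 fold change was 0.37 ± 0.11 (standard error), with an adjusted p of 0.0138, and the call was lost when a gene length trend was removed (0.27, adjusted p = 0.0580). Exons of *NPRL3* on the opposite strand cover 27.3% of its exon bases, and *NPRL3*, a regulator of mTORC1, rose by nearly the same amount (log2 fold change 0.38, adjusted p = 0.00768) from a higher level, 36.1 ± 3.02 CPM with DMSO (SD, n = 3). How far reads of *NPRL3* enter the *MPG* value was not tested.

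Levels between genes were compared per kilobase of exon. On that scale, with DMSO, *UNG* stood first at 26.7 ± 2.31 CPM per kilobase (SD, n = 3), above 91.1% of tested genes, followed by *MBD4* (12.0), *MUTYH* (9.20), *TDG* (8.70), *NTHL1* (6.49), *MPG* (6.19), *NEIL3* (5.49), *NEIL2* (5.41), *OGG1* (4.26) and *NEIL1* (0.333). The ranges of *MUTYH* and *TDG*, of *NTHL1* and *MPG*, and of *NEIL3* and *NEIL2* overlapped, so these neighbours did not differ beyond their spread. With TH588, *UNG* remained first at 13.7 ± 0.758 CPM per kilobase and *MBD4* second at 9.12 ± 0.554 (SD, n = 3 each). *MPG* moved to the third place (7.95, overlapping *TDG* at 7.76), and *NEIL3* to ninth (2.19). *MUTYH* (6.78), *NTHL1* (4.26, overlapping *NEIL2* at 3.85) and *OGG1* (3.51) lay between, and *NEIL1* (0.721) was again last.

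The places of several genes in that order rest on the length used, that of *OGG1* most of all. The authors' table gives *OGG1* 8733 exon bases over all its annotated transcripts, whereas its Ensembl canonical transcript has 1630 bases. Divided by canonical length, a choice made after seeing the data, *OGG1* stood second with DMSO at 22.8 CPM per kilobase, after *UNG* at 33.5. With TH588 it stood first at 18.8, with a range that overlapped *UNG* at 17.2. *MBD4* went from the second to the fourth place in both groups (16.8 with DMSO, 12.8 with TH588), and *MPG* with TH588 from the third to the fifth (12.75). With TH588 the ranges of *MBD4* (11.9 to 13.2), *MPG* (11.8 to 13.2) and *TDG* (11.1 to 12.9) overlapped, so their order was not settled. With DMSO the range of *MBD4* (from 16.4) overlapped that of *NTHL1* (up to 16.5). *NEIL1* was last in both groups on either length.

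The 10 genes together gave 84.8 ± 1.36 CPM per kilobase with DMSO and 59.9 ± 1.57 with TH588 (SD, n = 3 each). Shares of that sum describe the make-up of the family within a library. *UNG* made up 29.9% to 34.0% of the sum under DMSO and 22.3% to 24.0% under TH588. *MPG* went from 6.97% to 7.84% with DMSO to 12.7% to 13.6% with TH588. *NEIL3* went from 6.13% to 6.96% down to 3.22% to 3.94%. *NEIL1* went from 0.346% to 0.447% up to 0.983% to 1.42%. These ranges did not overlap between the groups for any of the 4 genes. The same held for *OGG1* (means 5.03% with DMSO and 5.87% with TH588), *TDG* (10.3% and 13.0%) and *MBD4* (14.1% and 15.2%). For *MBD4* the gap was narrow, from 14.605% to 14.609%. The shares of *MUTYH*, *NTHL1* and *NEIL2* overlapped. The sum itself was lower with TH588, so a higher share is not a rise in transcript: *OGG1* and *MBD4* were called lower. By canonical length the mean share of *UNG* was 22.8% with DMSO and 15.9% with TH588, and that of *OGG1* was 15.5% and 17.4%. The share of *MBD4* by that length was 11.4 ± 0.320% with DMSO and 11.8 ± 0.605% with TH588 (SD, n = 3 each). Those *MBD4* means differed by less than the TH588 SD, so its gap rests on the length used.

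The later steps of base excision repair also moved in both directions. Of 16 genes, 8 fell, 6 rose and 2 did not pass the test. Over all tested genes 25.3% were called lower and 24.2% higher. The number of these 16 called higher was 4 without DMSO replicate A, without TH588 replicate C or at an adjusted p under 0.01. The number called lower was 7 or 8 in every alternative. The median log2 fold change of the 16 genes was -0.22, and that of all tested genes 0.02. The largest falls were those of *FEN1*, the flap endonuclease of long-patch repair and replication (-1.38), *HMGB1*, a chromatin protein that assists repair (-1.10), and *PARP1*, the main sensor of single-strand breaks (-0.999). The largest rises were those of *PARP3*, a poly(ADP-ribose) polymerase family member active at DNA breaks (1.44), *POLL*, a gap-filling polymerase (1.08), and *APLF*, an end-joining and nuclease factor (0.93). With DMSO these 3 stood between 1.27 and 6.03 CPM. *PARP1* went from 1147 ± 63.0 to 574.0 ± 58.3 CPM (SD, n = 3 each). *APEX1*, which encodes APE1 and acts directly after the glycosylases, went from 267.5 ± 7.90 to 231.9 ± 7.35 CPM (SD, n = 3 each; log2 fold change -0.21, adjusted p = 0.0352). *APEX1* and the scaffold gene *XRCC1*, which did not pass (-0.23, adjusted p = 0.0837), lie outside the rule for named genes and were added after their values were seen. Other genes' exons cover 22.8% of the exon bases of *APLF* and 24.0% of those of *XRCC1*.

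**Figure D3:**
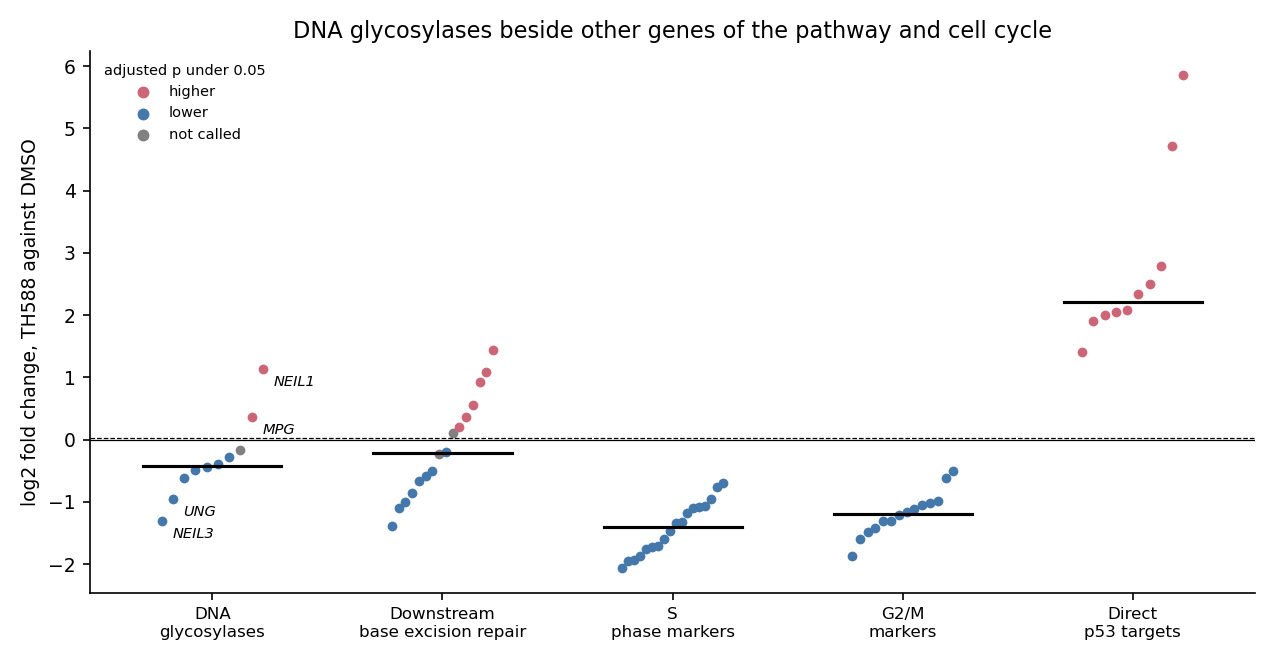
log2 fold change of TH588 against DMSO (vertical axis) for each tested gene of 5 groups, coloured by call in edgeR's test; horizontal bars are group medians and the dashed line the median of all tested genes. The DNA glycosylases (median -0.42) spread on both sides of 0, as do the downstream repair genes (median -0.22), while every S phase and G2/M marker lies below 0.

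*SMUG1*, the uracil glycosylase outside the set, was scarce, with 2.79, 2.94 and 2.64 CPM under DMSO and 3.59, 3.69 and 3.62 CPM under TH588, and was called higher (log2 fold change 0.38, adjusted p = 0.0420). Genes of the uracil pool and the cytosine deaminases moved in different directions. *DUT*, the dUTPase that keeps dUTP out of DNA, fell (-1.41), as did *SAMHD1*, a dNTP hydrolase (-0.78), and *TYMS*, thymidylate synthase (-0.70). *DUT* went from 82.0, 82.6 and 92.4 CPM under DMSO to 28.2, 33.6 and 34.6 CPM under TH588. Of the cytosine deaminases, *APOBEC3C* (1.24), *APOBEC3D* (1.98), *APOBEC3F* (1.72) and *APOBEC3G* (1.87) rose, and *APOBEC3H*, with 0 counts in all DMSO libraries, was at least 30.6-fold higher against a floor of 3 counts over the group. *APOBEC3B*, at 86.6 ± 5.09 CPM with DMSO, did not differ detectably (0.03, adjusted p = 0.782). *APOBEC3A* did not pass either (0.48, adjusted p = 0.102). Over the 10 tested genes of this list, 5 rose and 3 fell (median log2 fold change 0.86), against 24.2% and 25.3% of all tested genes. With a filter of 10 counts in every library, 3 genes of the list were called higher. *TYMS*, with 26.2% of its exon bases in exons of other genes, is also on the S phase list. *APOBEC3D*, *APOBEC3G* and *APOBEC3H* stayed under 1 CPM in every library, and 83.2% of the exon bases of *APOBEC3D* are shared with another gene.

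Enzymes that keep oxidized nucleotides out of DNA were examined as well. *NUDT1*, the gene of the drug's target, had 17.99, 15.5 and 15.2 CPM under DMSO and 8.52, 10.3 and 9.98 CPM under TH588 (log2 fold change -0.75, adjusted p = 0.000232). *NUDT5* (-0.35) fell as well, and *NUDT18*, under 1 CPM in every library, had a value of 1.04 (adjusted p = 0.0506). *NUDT18* crossed the threshold under several alternatives, DESeq2 among them. Of the mismatch repair genes that work beside MUTYH and MBD4, *MSH6* fell (-0.85) and *PMS2* did not pass (-0.15, adjusted p = 0.154).

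Alkylated bases are also repaired without a glycosylase. *MGMT*, the methyltransferase that restores alkylguanine, rose beside *MPG*, from 9.70 ± 0.696 to 16.4 ± 2.05 CPM (SD, n = 3 each; log2 fold change 0.76, adjusted p = 0.000219). *ALKBH2*, a dioxygenase for methylated bases, fell (-0.53, adjusted p = 0.000578), and *ALKBH3* did not pass (-0.08, adjusted p = 0.619). Of the enzymes that oxidize methylcytosine ahead of TDG, *TET2* was called higher (0.26, adjusted p = 0.0301), but not with a replicate block or without any of the 3 DMSO libraries in turn. *TET1* (-0.22, adjusted p = 0.0547) and *TET3* (-0.15, adjusted p = 0.401) did not pass.

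The most affected cell cycle markers, given as context for *NEIL3* and *UNG*, were the cyclin gene *CCNE2* (-2.06), the licensing factor *CDC6* (-1.95) and the ribonucleotide reductase subunit *RRM2* (-1.94) in S phase. In G2/M they were *CDK1* (-1.86), *MKI67* (-1.59) and *TOP2A* (-1.49). Among the p53 targets, *GDF15* (5.85), *CDKN1A* (4.71) and *TP53I3* (2.79) rose most. With 6 libraries in 2 groups, the fall of the glycosylases and that of the cell cycle markers cannot be told apart by library.

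**Figure D4:**
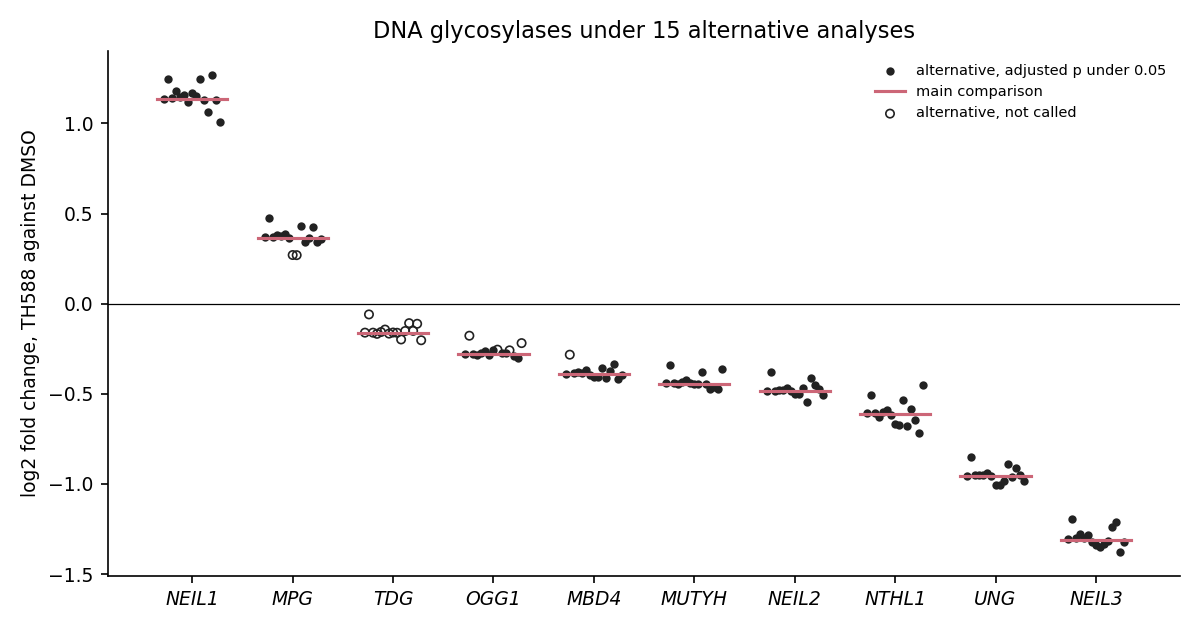
log2 fold change of TH588 against DMSO for each DNA glycosylase gene in the main comparison (line) and in 15 alternative analyses (points; open points did not pass an adjusted p of 0.05). No gene changed sign, and called genes with open points are *MPG*, *OGG1* and *MBD4*.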

How the data were processed

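RNA from A2780 cells was sequenced in 3 DMSO and 3 TH588 replicates with a TruSeq RNA v2 kit, which does not mark strand. The authors aligned reads to GRCh38 with TopHat, counted them per gene with featureCounts 1.4.6 (submitters' processing notes) and deposited raw counts. Gene models are named as UCSC in the methods but rows carry Ensembl identifiers, 57754 of which matched a symbol. The authors' own comparison used DESeq2. How reads shared between genes were counted is not given in the sources used here.

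Counts were compared with edgeR 4.0.16 in R 4.3.3 (TMM, default filter on low counts, quasi-likelihood test, no block, Benjamini-Hochberg over 15844 genes). Each standard error is the estimate over the root of its F statistic. Alternatives were DESeq2 1.42.0, its size factors alone within edgeR, limma-voom (limma 3.58.1), library size only, a filter of 10 counts in every library or none, a replicate block, removal of a gene length trend with and without the block, each library left out in turn, and an adjusted p under 0.01. Canonical transcript lengths (GENCODE) were added after seeing the data. The members and gene lists were chosen with earlier results of these data known. Named were all members, every gene of lists of 4 genes or fewer, the 3 largest called rises and falls of the other lists, and genes or pseudogenes that share exons or symbol with a member. *APOBEC3A*, *APOBEC3B*, *APOBEC3C* and *APOBEC3F*, like *APEX1* and *XRCC1*, are named outside this rule. Some genes of these lists are not reported here. Simulated counts of this comparison (15573 genes, changes of 1 or -1 on the log2 scale) gave back 136 of 192 changed genes, including all 119 whose mean log2 CPM was 2 or more, with 7 unchanged genes called. Few genes changed in the simulation, balanced up and down, and the libraries otherwise shared a composition. It therefore does not show how the test or the scaling behaves where 49.6% of genes were called. Replicates of a group differed by a chi-square per degree of freedom of 25.0 to 176, far beyond sampling noise. This value sums over genes, so abundant ones such as *SNORD3A* weigh most, and it was not computed for the members. Deviations of same-letter libraries correlated at -0.07, -0.08 and 0.00, so no pairing by letter was seen. The labels do not say whether same-letter libraries were handled together, and these values cannot exclude it. A floor of 3 counts, which covers counting error only, was 0.105 CPM in TH588 replicate A and at most 0.0386 CPM elsewhere. Promoter windows are from RefSeq on GRCh38.p14.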

Additional observations from a re-analysis of the deposited data

How the results depend on the processing

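Over 15 alternatives for each of the 10 genes, 143 values kept their direction and their side of the threshold, 7 lost the call, and none reversed. The number of DNA glycosylase genes called higher was 1 in place of 2 with the gene length trend removed, with the replicate block and gene length trend removed together, and at an adjusted p under 0.01, because *MPG* lost its call in each. The number called lower was 7 in the main comparison, 5 with library size only, where *OGG1* and *MBD4* lost their calls, and ranged from 6 to 7 over the fits that each left out a library. With the replicate block alone the counts were 2 higher and 7 lower, and 7195 genes were called in all. *OGG1* also lost its call with the block and length trend together (-0.26, adjusted p = 0.0552) and, at an adjusted p under 0.01, was the only gene lost among those called lower. Library size only put the all-gene median at 0.13, where TMM put it at 0.02, and the higher share of calls at 60.4%, where TMM gave 48.9%. Relative to that median, *OGG1* stood at -0.30 under both scalings. The difference of the *OGG1* to *MUTYH* ratio lay between 0.10 and 0.21 with a library left out, where the exact permutation test cannot go below p = 0.2. The cause of these changes was not tested.

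Genes under 1 CPM rest on few reads, most of all in TH588 replicate A. *NEIL1*, at 106 to 552 counts per library, is the member measured least precisely.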
